A study of Rattus norvegicus with 33 samples.

Results

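Of the 1057 functional subsystems in the table of cecal metagenomes, 10 carry peptidoglycan, murein, muropeptide or teichoic in their names. The name decides membership, and the choice was made with earlier results of these data known. A subsystem is a curated set of gene functions that serve 1 pathway or structure, and its value here counts DNA reads of bacterial genes, so it measures gene abundance and not expression. The DNA came from cecal contents of 33 rats aged 14 to 15 weeks: 10 SHR females, 9 WKY females, 7 SHR males and 7 WKY males. SHR, the spontaneously hypertensive rat, is an inbred model in which blood pressure climbs with age, and WKY (Wistar Kyoto) is the strain commonly set against it. No treatment is named in the labels for any group, and the labels give no cage, litter or sequencing batch, so the part of these was not tested. Within a metagenome, fewer bacteria that carry a gene and fewer copies of it per bacterium cannot be told apart.

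Peptidoglycan, also called murein, is the mesh of sugar strands tied by short peptides that lets most bacteria withstand their own turgor. Its precursor is built in the cytoplasm, passed across the membrane on a lipid carrier, polymerised and cross-linked outside, and cut by hydrolases whenever the cell grows or divides. Gram-negative bacteria such as Bacteroidetes have a thin layer under an outer membrane, and some, best known in Escherichia coli, recover much of the released peptides and sugars. Gram-positive bacteria such as Firmicutes have a thick layer with teichoic acids, which are bound to the wall, and lipoteichoic acids, which are anchored in the membrane. Addition of D-alanine to these polymers lowers their negative charge, and fragments of both peptidoglycan and lipoteichoic acid are known to be sensed by receptors of the host's innate immune system.

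Libraries held 95952 to 489862 reads assigned to subsystems, and depth was unequal between groups: SHR females had a median of 214910, against 396240 for WKY females, and SHR males 315720, against 382980 for WKY males. The shallowest were SHR female 9 with 95952 reads, SHR female 10 with 132735 and SHR male 4 with 159285. The 10 cell wall subsystems together took 1.77% ± 0.140 of subsystem reads in SHR females and 1.90% ± 0.181 in WKY females (SD, n = 10 and 9). They took 1.82% ± 0.124 in SHR males and 2.04% ± 0.359 in WKY males (SD, n = 7 each). Levels below are normalized reads, which are the reads of a subsystem divided by a size factor of its library, and they count reads without regard to gene length, so only levels of the same subsystem are compared.

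Peptidoglycan Biosynthesis was by far the most read, with 83592 reads or 41.9% of all member reads, and Teichoic and lipoteichoic acids biosynthesis followed with 42533 reads or 21.3%. Peptidoglycan biosynthesis--gjo, another curated version of the same pathway, had 23284 reads. The recycling and hydrolase subsystems had 16043 reads (Recycling of Peptidoglycan Amino Acids), 15842 (Murein Hydrolases), 5733 (Murein hydrolase regulation and cell death) and 627 (Recycling of Peptidoglycan Amino Sugars). The lipoteichoic acid subsystems had 9567 reads (Polyglycerolphosphate lipoteichoic acid biosynthesis) and 2466 reads (D-Alanyl Lipoteichoic Acid Biosynthesis). Peptidoglycan Crosslinking of Peptide Stems had 25 reads in all, in 15 of the 33 rats. The other 9 members therefore have measurable levels and 1 is close to the limit of detection.

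The members differed widely in how much they varied from rat to rat. Across all 33 rats the highest level was 1.32 times the lowest for Peptidoglycan Biosynthesis and 1.30 times for Peptidoglycan biosynthesis--gjo. It was 1.57 times for Murein Hydrolases and 2.02 times for Recycling of Peptidoglycan Amino Acids. It was 2.29 times for Teichoic and lipoteichoic acids biosynthesis, the broad subsystem of both polymers, and 7.07 times for Recycling of Peptidoglycan Amino Sugars, a rare one. The same ratio was 16.8 for Polyglycerolphosphate lipoteichoic acid biosynthesis and 24.5 for D-Alanyl Lipoteichoic Acid Biosynthesis. For Murein hydrolase regulation and cell death it was 2.21. Peptidoglycan Crosslinking of Peptide Stems, at 0 to 2.36 normalized reads, has no such ratio. Among the members with a ratio, the 2 synthesis subsystems of the mesh thus varied least, and the 2 subsystems named for lipoteichoic acid alone varied most. Counting error widens the ratio for members with few reads, and its part was not tested.

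**Figure D1:**
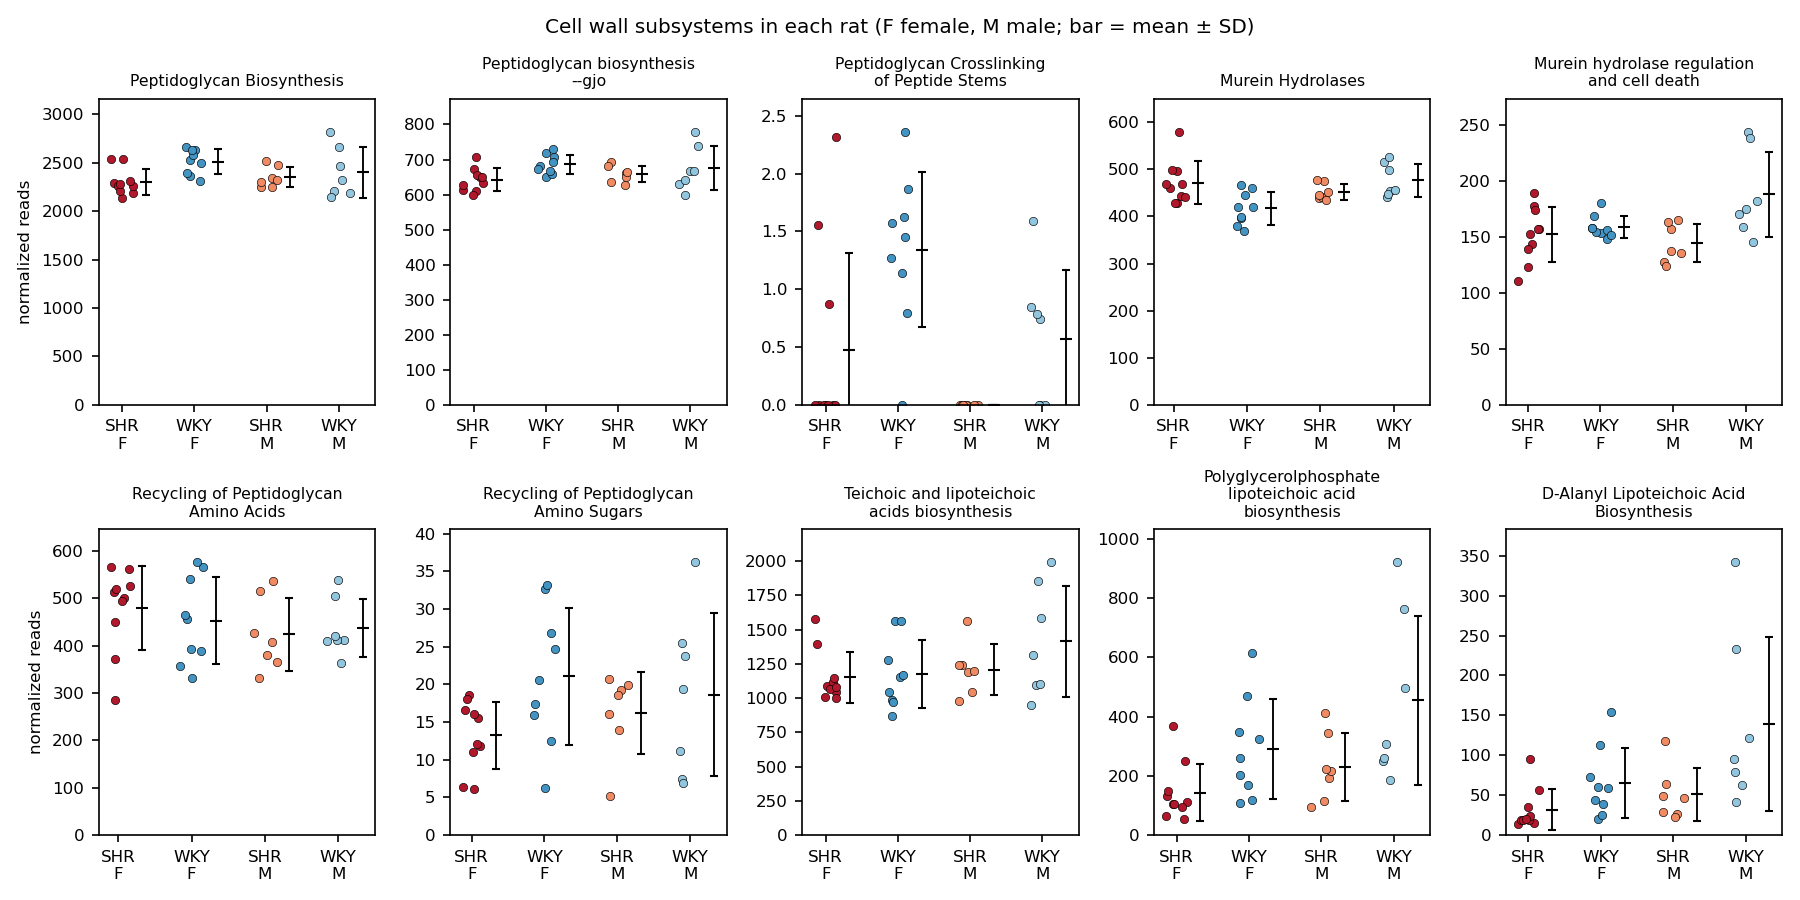
Normalized reads (y axes, starting at 0) of the 10 cell wall subsystems in each rat by strain and sex; each point is 1 rat, and the bar beside the points is the mean ± SD, drawn only above 0. Peptidoglycan Biosynthesis spans 2141 to 2821 normalized reads over all rats, while D-Alanyl Lipoteichoic Acid Biosynthesis spans 13.9 to 342.

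The strains were compared here within each sex and the sexes within each strain. In females, 1 of the 10 members was higher and 1 lower in SHR than in WKY in limma's test with Benjamini-Hochberg adjustment over all 1057 subsystems (adjusted p under 0.05), which is 20% of the members. Over all subsystems 8.42% were called in this comparison, 3.69% higher and 4.73% lower. At an unadjusted p under 0.05 there were 6 of 10 members, against 24.98% of all subsystems. The median log2 fold change, SHR minus WKY, was -0.11 over the members, -0.04 over all subsystems and -0.0458 over those with at least 1 read. For females edgeR called 1 member, Murein Hydrolases (higher), and 101 subsystems in all. DESeq2 called 2 members, Murein Hydrolases (higher) and Polyglycerolphosphate lipoteichoic acid biosynthesis (lower), and 125 subsystems in all. Neither called Peptidoglycan Crosslinking of Peptide Stems, the member that limma called lower. In males 0 of the 10 members were called by limma, while 2.46% of all subsystems were, 0.662% higher and 1.8% lower. In males 3 members had an unadjusted p under 0.05, as did 19.2% of all subsystems. For males edgeR called 0 members and 37 subsystems in all, and DESeq2 called 2 members and 77 subsystems in all. All 10 fitted differences in males were below 0, with a median of -0.13, against -0.0015 over all subsystems and -0.0236 over those with at least 1 read. The share of all subsystems below 0 in males was not counted, and members may share reads, so this count is a description.

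**Figure D2:**
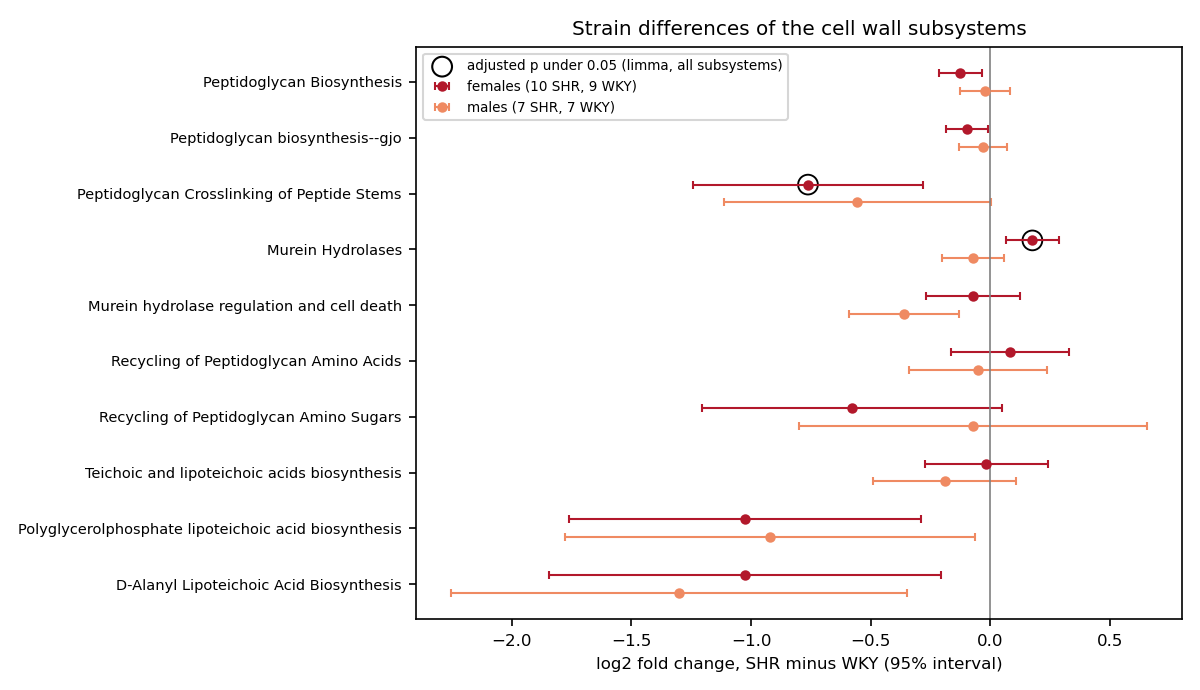
Log2 fold change of each cell wall subsystem, SHR minus WKY (x axis), with its 95% interval from limma, in females and in males; open circles mark an adjusted p under 0.05 over all subsystems. The circled subsystems are Murein Hydrolases at 0.18 and Peptidoglycan Crosslinking of Peptide Stems at -0.76, both in females, and the widest intervals below 0 belong to the lipoteichoic acid subsystems.

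For synthesis of the polymer, Peptidoglycan Biosynthesis covers the enzymes that make the muramyl-peptide precursor and join it to the wall. It lay at 2141 in the lowest, 2273 in the median and 2539 normalized reads in the highest SHR female, against 2314, 2526 and 2663 in WKY females. Of the 10 SHR females 8 were below every WKY female, and the 2 above the WKY median were SHR females 9 and 10, the shallowest libraries. The means were 2302 ± 134 and 2512 ± 128 (SD, n = 10 and 9), a log2 fold change of -0.13 ± 0.04 (SE) with an adjusted p of 0.0720 (limma), so the difference did not pass the threshold. Without the 3 shallowest libraries it did, at -0.16 and an adjusted p of 0.0142. It also passed on the female rats alone (adjusted p = 0.0373) and on leaving out SHR female 9 (0.0353), SHR female 10 (0.0407) or WKY female 5 (0.0482). The other 8 of 10 alternatives did not pass, among them edgeR (adjusted p = 0.1505), DESeq2 (0.0666) and thinning to the shallowest library (0.136). Over all 19 leave-one-out fits the adjusted p ran from 0.0353 to 0.124.

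In the authors' deposited table for females, Peptidoglycan Biosynthesis is listed with a log2 fold change of 0.13 and an adjusted p of 0.003. The direction of that table is not stated in its header. The sign was opposite to SHR minus WKY here for all 85 subsystems it lists, so its values are taken to run the other way.

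Males showed no such separation for Peptidoglycan Biosynthesis. The lowest, median and highest levels were 2247, 2322 and 2516 normalized reads in SHR males, against 2142, 2320 and 2821 in WKY males, and the log2 fold change was -0.02 ± 0.05 (SE; adjusted p = 0.861, limma), with a 95% interval of -0.13 to 0.08. The strain effect in females minus that in males was -0.10 ± 0.07 on the log2 scale (SE; adjusted p = 0.795, limma), so a difference between females and males was not shown.

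The alternative version, Peptidoglycan biosynthesis--gjo, ran the same way with a smaller size. It had 599, 641 and 706 normalized reads in the lowest, median and highest SHR female, against 652, 680 and 731 in WKY females. There were 7 SHR females below every WKY female and 3 WKY females above every SHR female. The log2 fold change was -0.10 ± 0.04 (SE; adjusted p = 0.139, limma). In males the range was 627 to 693 in SHR and 599 to 779 in WKY, with a log2 fold change of -0.03 ± 0.05 (SE; adjusted p = 0.788, limma). Whether a read could count toward more than 1 subsystem is not given in the sources used here, so these related subsystems may share reads and are not independent of each other.

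Peptidoglycan Crosslinking of Peptide Stems covers the step that ties the peptides of neighbouring strands. It is named here after its values were seen, because its group medians were under 10 normalized reads. Of its reads 5 came from 3 of 10 SHR females, against 15 reads from 8 of 9 WKY females. No read came from the 7 SHR males, against 5 reads from 4 of 7 WKY males. Per 1000000 subsystem reads these were 2.03 (exact Poisson 95% interval 0.659 to 4.73) in SHR females and 4.37 (2.45 to 7.21) in WKY females. The 0 reads of SHR males had an interval of 0 to 1.75, and a floor of 3 reads over that group is 1.43, against 1.87 (0.606 to 4.35) in WKY males. These intervals cover counting error only, and in both sexes they overlap between the strains.

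Limma called this subsystem lower in SHR females, with a log2 fold change of -0.76 ± 0.24 (SE) and an adjusted p of 0.0375. The count models did not, with an adjusted p of 0.345 by edgeR and 0.455 by DESeq2. After all libraries were thinned to the depth of the shallowest the adjusted p was 0.286. The call was also lost with a pseudocount of 5 (0.0505), on the females alone (0.0918), without the 3 shallowest libraries (0.0776), and on leaving out any 1 of 13 of the 19 female libraries. Those were SHR females 1, 3, 6, 7, 8 and 10 and WKY females 1, 2, 3, 6, 7, 8 and 9, and over all 19 the adjusted p ran from 0.00847 to 0.0856. A difference in this subsystem was not detectable at this depth by counts.

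Murein Hydrolases holds the enzymes that cut the mesh, such as amidases, glucosaminidases and lytic transglycosylases. It was the member with the most reads among those called. The lowest, median and highest levels were 429, 464 and 580.2 normalized reads in SHR females, against 368, 419 and 466.4 in WKY females. All 10 SHR females were above the WKY median, 5 were above every WKY female, and 6 WKY females were below every SHR female. Means were 471.7 ± 45.4 in SHR females and 417.3 ± 34.5 in WKY females (SD, n = 10 and 9). The log2 fold change was 0.18 ± 0.05 (SE; adjusted p = 0.0403, limma), and the adjusted p was 0.0286 by edgeR and 0.00868 by DESeq2.

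The size of this difference stayed between 0.16 and 0.20 under the alternatives, but its adjusted p lay near the threshold. It rose to 0.0649 on the female rats alone and to 0.172 after thinning. It was also above 0.05 on leaving out any 1 of 10 of the 19 female libraries. These were SHR females 1, 2, 3, 4 and 7 and WKY females 1, 3, 4, 7 and 8. Over all 19 the log2 fold change ran from 0.14 to 0.20 and the adjusted p from 0.0271 to 0.0935. SHR female 1 had the highest level of all rats, 580.2 normalized reads, and without it the log2 fold change was 0.14 with an adjusted p of 0.0920.

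In males the levels of Murein Hydrolases were 434, 445 and 477 normalized reads in the lowest, median and highest SHR male, against 441, 456 and 525 in WKY males. There were 2 SHR males below every WKY male, and 3 WKY males were above every SHR male. The log2 fold change was -0.07 ± 0.06 (SE; adjusted p = 0.546, limma). The strain effect in females minus that in males was 0.25 ± 0.08 (SE) on the log2 scale, with an unadjusted p of 0.00579 and an adjusted p of 0.426 (limma). The difference between the sexes therefore did not pass the threshold.

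The same subsystem carried the smallest p among the members between the sexes of WKY. WKY females averaged 417.3 ± 34.5 normalized reads and WKY males 476.7 ± 35.4 (SD, n = 9 and 7), a log2 fold change of -0.19 ± 0.06 (SE; adjusted p = 0.0811, limma), female minus male. Of the 9 WKY females 6 were below every WKY male. DESeq2 called this difference, and so did limma without WKY male 7 (adjusted p = 0.0481). In SHR the females averaged 471.7 ± 45.4 and the males 452.0 ± 17.2 (SD, n = 10 and 7), a log2 fold change of 0.06 ± 0.06 (SE; adjusted p = 0.913, limma).

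Murein hydrolase regulation and cell death covers holin-like and antiholin-like membrane proteins and their regulators, which are known to control when hydrolases act. Its levels in females were 110, 155 and 190 normalized reads in the lowest, median and highest SHR female, against 148, 156 and 181 in WKY females (log2 fold change -0.07 ± 0.10, SE; adjusted p = 0.696, limma). The SHR females spread to both sides of the WKY range, with 4 below every WKY female and 1 above. In males they were 124, 138 and 166 in SHR, against 146, 175 and 244 in WKY. All 7 SHR males were below the WKY median, 4 were below every WKY male and 5 WKY males were above every SHR male.

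This was the male difference with the smallest p among the members. Means were 144.6 ± 17.2 in SHR males and 188.3 ± 38.3 in WKY males (SD, n = 7 each), with a log2 fold change of -0.36 ± 0.11 (SE) and an adjusted p of 0.0644 (limma), which missed the threshold. It passed after a filter on low values (adjusted p = 0.0436) and with DESeq2 (0.0200), and on leaving out WKY male 2 (0.0346) or WKY male 7 (0.0479). Over the 14 leave-one-out fits the adjusted p ran from 0.0346 to 0.192. The highest levels were 244 in WKY male 5 and 239 in WKY male 6. The strain effect in females minus that in males was 0.29 ± 0.15 on the log2 scale (SE; adjusted p = 0.706, limma).

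For recovery of wall fragments, Recycling of Peptidoglycan Amino Acids covers uptake and cleavage of released peptides. It had 285, 506 and 566 normalized reads in the lowest, median and highest SHR female, against 332, 456 and 577 in WKY females, a log2 fold change of 0.08 ± 0.12 (SE; adjusted p = 0.736, limma). The lowest SHR females were the shallowest libraries, SHR female 9 at 285 and SHR female 10 at 371. In males the levels were 331, 408 and 537 in SHR, against 364, 412 and 537 in WKY (log2 fold change -0.05 ± 0.14, SE; adjusted p = 0.904, limma). No strain difference was detected in either sex, and the 95% intervals of the log2 fold change were -0.17 to 0.33 in females and -0.34 to 0.24 in males.

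Recycling of Peptidoglycan Amino Sugars, which covers return of muramic acid and glucosamine to metabolism, was far rarer. It had 6.13, 13.8 and 18.6 normalized reads in the lowest, median and highest SHR female, against 6.21, 20.5 and 33.1 in WKY females. All 10 SHR females were below the WKY median, and 5 WKY females were above every SHR female. The log2 fold change was -0.58 ± 0.31 (SE; adjusted p = 0.241, limma) on 109 reads from SHR females and 242 from WKY females. In males it had 5.13, 18.6 and 20.7 in SHR, against 6.88, 19.4 and 36.2 in WKY, with a log2 fold change of -0.07 ± 0.36 (SE; adjusted p = 0.976, limma).

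The 3 teichoic members cover the polymers of Gram-positive walls. Teichoic and lipoteichoic acids biosynthesis, the broad subsystem of both polymers, had 1001, 1083 and 1576 normalized reads in the lowest, median and highest SHR female, against 870, 1154 and 1561 in WKY females. The other 8 SHR females lay between 1001 and 1146, below SHR female 9 at 1576 and SHR female 10 at 1394.5. The log2 fold change was -0.02 ± 0.13 (SE; adjusted p = 0.995, limma). In males the levels were 979, 1199 and 1561 in SHR, against 950, 1318 and 1994 in WKY, a log2 fold change of -0.19 ± 0.15 (SE; adjusted p = 0.484, limma).

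Polyglycerolphosphate lipoteichoic acid biosynthesis covers the glycolipid anchor and the glycerol-phosphate chain of lipoteichoic acid. It had 54.8, 108.8 and 368 normalized reads in the lowest, median and highest SHR female, against 109, 261 and 614 in WKY females. Of the 10 SHR females 9 were below the WKY median, all but SHR female 9, and 5 were below every WKY female. Means were 143 ± 95.6 in SHR females and 291 ± 168 in WKY females (SD, n = 10 and 9). The log2 fold change was -1.03 ± 0.36 (SE) with an adjusted p of 0.0730 (limma), which missed the threshold, and 0.0399 by DESeq2, which passed it.

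SHR females 9 and 10 stood apart in this subsystem at 368 and 249.7 normalized reads, while the other 8 had at most 148. Without the 3 shallowest libraries the log2 fold change was -1.35 with an adjusted p of 0.0106 (limma). Leaving out a single library also brought the adjusted p below the threshold for SHR female 9 (0.0242), SHR female 10 (0.0464), WKY female 4 (0.0464) and WKY female 5 (0.0360). Over all 19 such fits it ran from 0.0242 to 0.1495. After thinning to equal depth, the log2 fold change was -0.92 with an adjusted p of 0.200.

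In males the same subsystem had 96.0, 218 and 411 normalized reads in the lowest, median and highest SHR male, against 185, 308 and 922 in WKY males. Means were 229 ± 115 and 455 ± 285 (SD, n = 7 each), and the log2 fold change was -0.92 ± 0.42 (SE; adjusted p = 0.216, limma). The highest values came from WKY male 5 at 922 and WKY male 6 at 762. In size the male difference was close to the female one, and the strain effect in females minus that in males was -0.10 ± 0.55 on the log2 scale (SE; adjusted p = 1, limma), with a 95% interval of -1.23 to 1.02.

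D-Alanyl Lipoteichoic Acid Biosynthesis covers the dlt functions that load and transfer D-alanine. It had 13.9, 20.02 and 95.1 normalized reads in the lowest, median and highest SHR female, against 19.9, 58.8 and 154 in WKY females. Of the 10 SHR females 9 were below the WKY median and 5 were below every WKY female. Means were 31.7 ± 25.6 in SHR females and 65.1 ± 43.5 in WKY females (SD, n = 10 and 9), with a log2 fold change of -1.02 ± 0.40 (SE; adjusted p = 0.101, limma). SHR female 9 at 95.1 and SHR female 10 at 56.2 were again the highest, above the 13.9 to 35.6 of the other 8.

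Without the 3 shallowest libraries the female log2 fold change of D-Alanyl Lipoteichoic Acid Biosynthesis was -1.39 with an adjusted p of 0.0189 (limma), and leaving out SHR female 9 alone gave -1.23 and 0.0356. The female difference did not pass with edgeR (adjusted p = 0.0759), DESeq2 (0.0591) or after thinning (0.219). Over all 19 leave-one-out fits its adjusted p ran from 0.0356 to 0.204. In males this subsystem had 23.2, 46.4 and 118 normalized reads in the lowest, median and highest SHR male, against 41.1, 95.5 and 342 in WKY males. There were 3 SHR males below every WKY male, and 3 WKY males were above every SHR male. Means were 50.9 ± 33.1 and 139 ± 109 (SD, n = 7 each), a log2 fold change of -1.30 ± 0.47 (SE; adjusted p = 0.114, limma). DESeq2 gave an adjusted p of 0.0325, and limma without WKY male 7 gave 0.0442. The male difference did not pass with edgeR (adjusted p = 0.0754), on the males alone (0.225) or after thinning (0.279). Over all 14 leave-one-out fits in males the adjusted p ran from 0.0442 to 0.286.

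The authors' deposited table of the model over all rats lists D-Alanyl Lipoteichoic Acid Biosynthesis with a log2 fold change of 2.19 and an adjusted p of 0.00017. It also lists Polyglycerolphosphate lipoteichoic acid biosynthesis with 1.68 and 0.00338. The terms of that model are not stated in its header, and of the 148 subsystems it lists 13 have the same sign as SHR minus WKY in females here. The authors' deposited table for males lists 16 subsystems and none of the 10 members.

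A ratio of 2 subsystems in the same library does not depend on the size factor, so the teichoic members were also set against Peptidoglycan Biosynthesis rat by rat. D-Alanyl Lipoteichoic Acid Biosynthesis had 0.882 reads per 100 reads of Peptidoglycan Biosynthesis in the median SHR female (0.637 to 3.74), against 2.23 in the median WKY female (0.798 to 6.44). It had 1.94 in the median SHR male (0.990 to 5.09), against 3.87 in the median WKY male (1.77 to 12.9). Polyglycerolphosphate lipoteichoic acid biosynthesis had 4.87 per 100 in the median SHR female, against 9.90 in the median WKY female, and 8.78 in the median SHR male, against 12.5 in the median WKY male. Teichoic and lipoteichoic acids biosynthesis had 48.9 per 100 in the median SHR female, against 44.3 in the median WKY female, and 50.04 in the median SHR male, against 53.4 in the median WKY male. Relative to Peptidoglycan Biosynthesis, the median SHR rat of either sex thus had less of the D-alanyl and polyglycerolphosphate subsystems, while the median of the broad subsystem was higher in SHR females and lower in SHR males.

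In the exact permutation test over rats (2-sided, adjusted over 6 ratios) none of these differences passed. The mean log2 ratio differed by -0.90 ± 0.40 (SE) for D-Alanyl Lipoteichoic Acid Biosynthesis in females (exact p = 0.0399) and by -1.28 ± 0.47 in males (exact p = 0.0204). For Polyglycerolphosphate lipoteichoic acid biosynthesis it differed by -0.90 ± 0.37 in females (exact p = 0.0271) and by -0.90 ± 0.40 in males (exact p = 0.0472). The adjusted exact p was 0.0708 for each of these 4. Without the 3 shallowest libraries the female ratios differed by -1.23 and -1.19, each with an adjusted exact p of 0.0109. Teichoic and lipoteichoic acids biosynthesis differed by 0.11 ± 0.12 in females and -0.17 ± 0.15 in males (adjusted exact p = 0.3597 and 0.3252).

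Between the sexes limma called none of the 10 members in either strain. In SHR, where 0% of all subsystems were called by limma, edgeR or DESeq2 and 48 had an unadjusted p under 0.05, no member had an unadjusted p under 0.05. In WKY, where 0.662% of all subsystems were called, 4 members had an unadjusted p under 0.05, as did 18.3% of all subsystems. For the interaction of strain and sex 0% of all subsystems were called by limma or edgeR and 1 was by DESeq2. There, 82 subsystems had an unadjusted p under 0.05 by limma, Murein Hydrolases being the single member among them.

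The group means of the lipoteichoic acid genes were smaller in females than in males of either strain, but none of these differences passed the test. D-Alanyl Lipoteichoic Acid Biosynthesis averaged 65.1 ± 43.5 normalized reads in WKY females and 139 ± 109 in WKY males (log2 fold change -1.01 ± 0.44, SE; adjusted p = 0.200, limma). It averaged 31.7 ± 25.6 in SHR females and 50.9 ± 33.1 in SHR males (log2 fold change -0.73 ± 0.43, SE; adjusted p = 0.837, limma). From low to high, the order of the group means was SHR female, SHR male, WKY female and WKY male, with ranges that overlapped between neighbours.

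The members fell into sets that moved together over the rats once the group means were removed. The 3 teichoic members had Spearman correlations of 0.89 to 0.94 with each other over 33 rats. Recycling of Peptidoglycan Amino Acids ran against them, at -0.63 to -0.69. Peptidoglycan biosynthesis--gjo ran with them at 0.57 to 0.66 and Peptidoglycan Biosynthesis at 0.38 to 0.47. Murein Hydrolases was close to unrelated to them, at -0.04 to 0.04. These values are descriptions, since the members share libraries and parts of one whole.

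**Figure D3:**
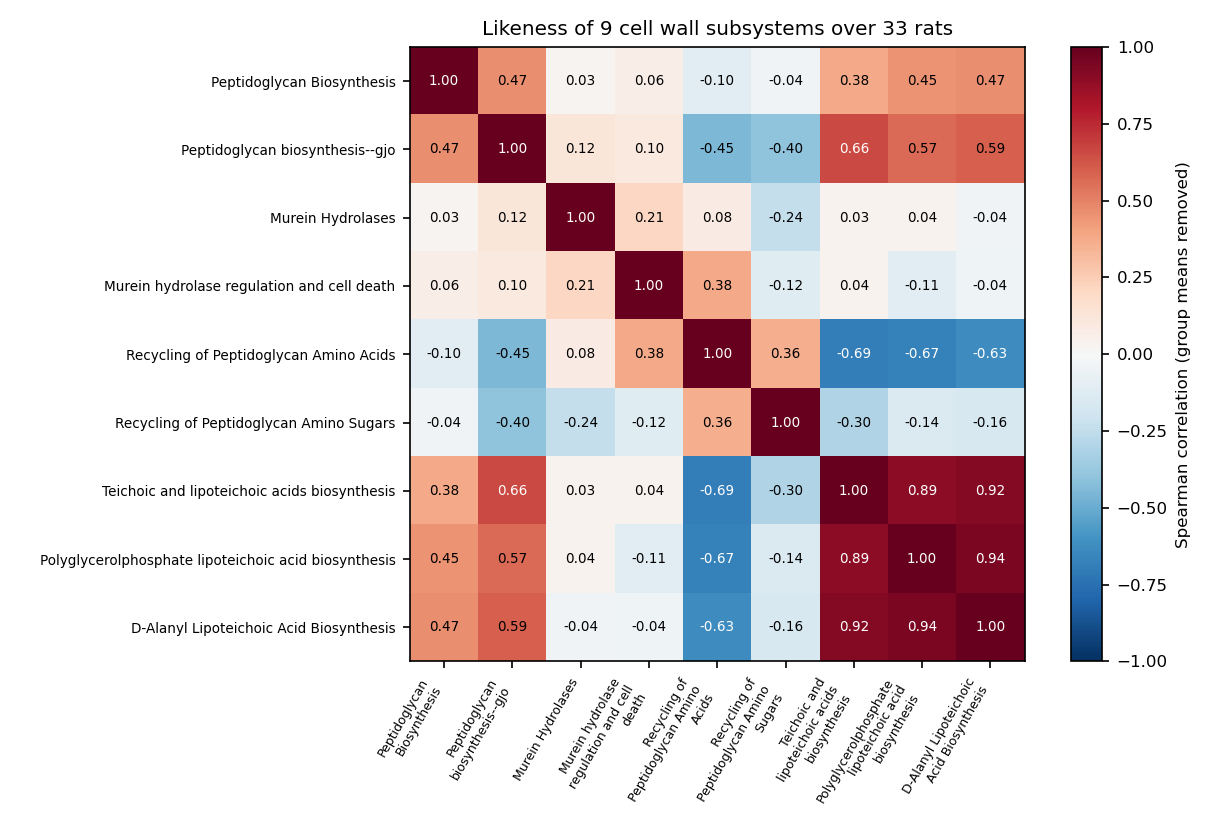
Spearman correlation between 9 cell wall subsystems over 33 rats after group means were removed (red above 0, blue below 0); Peptidoglycan Crosslinking of Peptide Stems, with 25 reads, is left out. The 3 teichoic subsystems form a block at 0.89 to 0.94, and Recycling of Peptidoglycan Amino Acids is at -0.63 to -0.69 with them.

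The same sets appeared against the bacteria present. Firmicutes made up 42.9% ± 9.63 of bacterial reads in SHR females and 44.3% ± 13.7 in WKY females (SD, n = 10 and 9), and 47.3% ± 10.0 in SHR males and 56.5% ± 11.5 in WKY males (SD, n = 7 each). With group means removed, the level of Teichoic and lipoteichoic acids biosynthesis rose with the Firmicutes share over 33 rats, with Pearson's r of 0.78 and Spearman's rho of 0.74. Both had a permutation p of 1e-05, the smallest that 100000 permutations within groups can give, and an adjusted p of 5e-05 over the 10 members tested. Without the 2 rats farthest from the median share, WKY female 4 and WKY male 4, r was 0.75. Both measures come from reads of the same libraries.

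Polyglycerolphosphate lipoteichoic acid biosynthesis (r = 0.69, rho = 0.65, permutation p = 5e-05 and 0.00022, adjusted p = 0.000167 and 0.000733) followed the Firmicutes share in the same way. So did D-Alanyl Lipoteichoic Acid Biosynthesis (r = 0.68, rho = 0.61, permutation p = 9e-05 and 0.00053, adjusted p = 0.000225 and 0.00132). Without the 2 farthest rats r was 0.66 for each. Within groups, r for Teichoic and lipoteichoic acids biosynthesis was 0.80 in the 10 SHR females, 0.93 in the 9 WKY females, 0.43 in the 7 SHR males and 0.90 in the 7 WKY males. For Polyglycerolphosphate lipoteichoic acid biosynthesis it was 0.53, 0.82, 0.53 and 0.88 in the same order of groups. For D-Alanyl Lipoteichoic Acid Biosynthesis it was 0.69, 0.84, 0.24 and 0.84, so the relation was weakest in SHR males.

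The relation within SHR females rested on the shallowest libraries. SHR females 9 and 10 had the highest Firmicutes shares of their group, and among the other 8 r was 0.14 for Teichoic and lipoteichoic acids biosynthesis, -0.54 for Polyglycerolphosphate lipoteichoic acid biosynthesis and -0.17 for D-Alanyl Lipoteichoic Acid Biosynthesis. In SHR males without the shallow SHR male 4, r was 0.46, 0.44 and 0.23 for these subsystems in turn. Within WKY r was 0.82 to 0.93 for all of them. Over all groups without the 3 shallowest libraries r stayed at 0.75, 0.61 and 0.62 (n = 30, permutation p of 2e-05, 0.00171 and 0.00129, adjusted p of 0.00015, 0.00427 and 0.00427).

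Recycling of Peptidoglycan Amino Acids fell as the Firmicutes share rose, with r = -0.82 and rho = -0.84 over 33 rats (permutation p = 1e-05, the smallest the permutations can give; adjusted p = 5e-05 for each). The r within groups was -0.81 in SHR females, -0.86 in WKY females, -0.92 in SHR males and -0.65 in WKY males, and -0.81 over all without the 2 farthest rats. Among SHR females without the 2 shallowest libraries it was -0.32, and over all groups without the 3 shallowest -0.79 (n = 30, permutation p = 3e-05, adjusted p = 0.00015). Recycling of Peptidoglycan Amino Sugars also fell, more weakly (r = -0.40, rho = -0.44, permutation p = 0.0264 and 0.0183, adjusted p = 0.0439 and 0.0305). Its r was -0.46 without the 2 farthest. On percent of subsystem reads it was lost by Pearson's r (-0.37, adjusted permutation p = 0.0595) and kept by Spearman's rho (-0.41, adjusted permutation p = 0.0377). Peptidoglycan biosynthesis--gjo rose (r = 0.47, rho = 0.50, permutation p = 0.00408 and 0.00459, adjusted p = 0.00816 and 0.00918; r = 0.46 without the 2 farthest).

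The other 4 members showed no relation that passed on normalized reads. For Peptidoglycan Biosynthesis r was 0.04 and rho -0.06 (permutation p = 0.823 and 0.737, adjusted p = 0.823 and 0.737). The values within groups pointed in different directions: r was 0.59 in SHR females, -0.61 in WKY females, -0.31 in SHR males and 0.37 in WKY males. Without the 3 shallowest libraries r was -0.67 in SHR females and -0.81 in SHR males, so that WKY males alone were above 0, and -0.21 over all groups (adjusted permutation p = 0.3597). For Murein Hydrolases r was 0.25 and rho 0.22 (permutation p = 0.195 and 0.242, adjusted p = 0.244 and 0.303), while on percent of subsystem reads its relation passed (r = 0.51, adjusted permutation p = 0.00935). Murein hydrolase regulation and cell death had r = -0.22 (adjusted permutation p = 0.244) and Peptidoglycan Crosslinking of Peptide Stems r = -0.18 (adjusted permutation p = 0.359). The pooled r of Murein hydrolase regulation and cell death joins unlike groups. Its r was -0.70 in SHR females, -0.06 in WKY females, -0.89 in SHR males and 0.66 in WKY males. Without the 3 shallowest libraries it was -0.12 in SHR females and -0.87 in SHR males. These values within groups are descriptions.

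**Figure D4:**
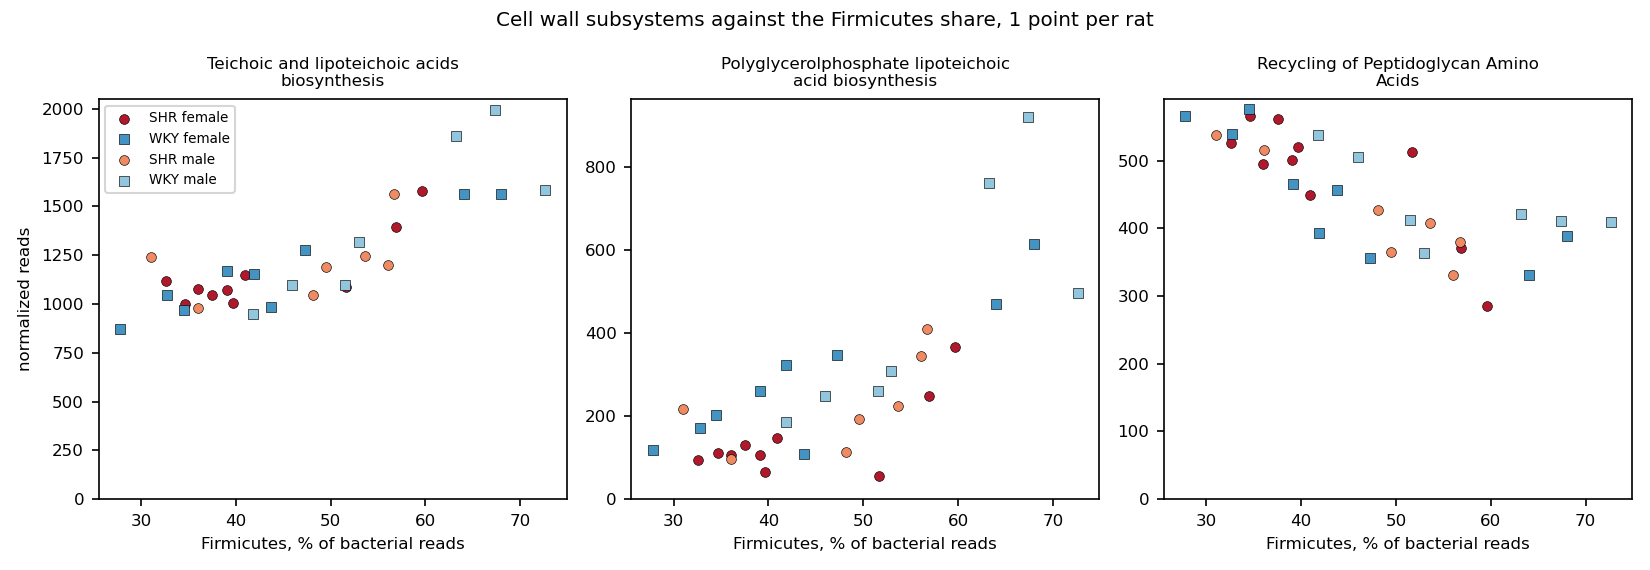
Normalized reads of 3 cell wall subsystems (y axes, from 0) against the share of Firmicutes in bacterial reads (x axis, percent), 1 point per rat, coloured by strain and sex. Both teichoic subsystems climb with the share and Recycling of Peptidoglycan Amino Acids falls; the correlations with group means removed are 0.78, 0.69 and -0.82.

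Other phyla differ in their walls. Bacteroidetes, which are Gram-negative, made up 35.5% ± 10.6 of bacterial reads in SHR females and 31.7% ± 14.9 in WKY females, and 28.1% ± 13.1 in SHR males and 18.8% ± 13.4 in WKY males. Actinobacteria, which are Gram-positive, made up 6.25% ± 0.541 in SHR females and 5.80% ± 1.46 in WKY females, and 7.70% ± 1.41 in SHR males and 7.82% ± 3.41 in WKY males. Verrucomicrobia, which are Gram-negative, made up 0.603% ± 0.455 in SHR females and 6.17% ± 7.82 in WKY females, and 1.89% ± 3.09 in SHR males and 4.92% ± 6.57 in WKY males. Proteobacteria had means of 9.29% to 11.5% and the wall-less Tenericutes of 0.546% to 0.762% (SD and group sizes as above). The part of these shares in the strain differences of the members was not tested.

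By a fixed measure, the Spearman correlation with group means removed over 33 rats, the subsystems most like Teichoic and lipoteichoic acids biosynthesis among 1014 with at least 1 read were sought. They were Cell envelope-associated LytR-CpsA-Psr transcriptional attenuators (0.94), Sex pheromones in Enterococcus faecalis and other Firmicutes (0.93) and Gram Positive Competence (0.93). Proteins of the LytR-CpsA-Psr family are known to attach wall polymers such as teichoic acids to peptidoglycan. Among 80 genera with a mean of at least 0.1% of assigned reads, Lactobacillus was most like it (0.87), then Romboutsia (0.79) and Turicibacter (0.78), all of them Firmicutes. Lactobacillus made up 1.69% of assigned reads in the median SHR female (0.858% to 13.2%), against 7.69% in the median WKY female (1.97% to 22.7%). It made up 4.42% in the median SHR male (1.14% to 11.2%), against 7.71% in the median WKY male (3.76% to 26.2%).

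Peptidoglycan Biosynthesis had less marked companions. The most alike subsystems were Thioredoxin-disulfide reductase (0.77), RNA processing and degradation, bacterial (0.72) and ATP-dependent RNA helicases, bacterial (0.70), which serve functions that nearly all bacteria have. Among genera the most alike were Akkermansia (0.42), Bifidobacterium (0.39) and Limosilactobacillus (0.33). Akkermansia, a mucin-degrading genus of the Verrucomicrobia, made up 0.308% of assigned reads in the median SHR female (0.0655% to 1.08%), against 1.71% in the median WKY female (0.0685% to 22.7%).

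Subsystems related to the wall by name, but not members, were counted as 5 lists. Of 11 for wall precursors, none was called in females or in males, and the median log2 fold change was -0.04 in females and -0.11 in males. This list includes UDP-N-acetylmuramate from Fructose-6-phosphate Biosynthesis, the supply of the muramic acid precursor, at -0.04 ± 0.05 (SE; adjusted p = 0.670, limma) in females. It also includes Lysine Biosynthesis DAP Pathway, the source of diaminopimelate for the peptide, at -0.07 ± 0.06 (SE; adjusted p = 0.493, limma), and, by a chance match of letters, Adaptation to d-cysteine. Others of the list ran the other way in females. Sortase was at 0.27 ± 0.15 in females (SE, adjusted p = 0.250, limma) and -0.49 ± 0.17 in males (adjusted p = 0.103, limma). Teichuronic acid biosynthesis was at 0.18 ± 0.14 in females (SE, adjusted p = 0.467, limma) and 0.41 ± 0.16 in males (adjusted p = 0.131, limma). All of these are named as examples, chosen after their values were seen. Of 7 for wall-directed antibiotics and lysozyme none was called in either sex, with a median of 0.20 in females and -0.11 in males.

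Of 10 subsystems for cell division and shape, 1 was called, lower in SHR females, against 4.73% of all subsystems. The median log2 fold change of the list in females was -0.0043. The called subsystem was Cell Division Subsystem including YidCD, with means of 1281 normalized reads in SHR females and 1485 in WKY females (log2 fold change -0.21 ± 0.05, SE; adjusted p = 0.0143, limma). Of 10 for spores, 1 was called, higher in SHR females, against 3.69% of all subsystems, and the median was 0.12. It was Sporulation-associated proteins with broader functions, with means of 211 in SHR females and 162 in WKY females (log2 fold change 0.38 ± 0.08, SE; adjusted p = 0.00369, limma).

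Of 13 subsystems for the outer membrane of Gram-negative bacteria, 1 was called, higher in SHR females, against 3.69% of all subsystems. The median in females was -0.01. The called subsystem was Phosphorylcholine incorporation in LPS, with means of 103 normalized reads in SHR females and 63.7 in WKY females (log2 fold change 0.67 ± 0.11, SE; adjusted p = 0.000474, limma). This list holds 2 subsystems of phospholipid metabolism through a chance match of letters, neither of them called. No subsystem of the 5 lists was called in males, between the sexes or for the interaction. Over all subsystems limma called 2.46% in males, 0.662% between the sexes in WKY, and 0% in SHR and for the interaction.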

How the data were processed

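Cecal DNA of 33 rats was sequenced by shotgun metagenomics. The submitters' processing notes name Trimmomatic 0.36, cutadapt 2.6, DESeq2 and FastQC 0.11.5, with no order; what assigned reads to subsystems and taxa is not given in the sources used here. The deposited function table holds a normalized signal per subsystem, reads divided by a library size factor; 100% of its values gave whole reads (tolerance 0.01). The deposited phylum and genus tables hold percent of assigned reads. Phylum values were rescaled here to bacterial reads, and genus values were used as deposited. The authors' deposited model tables give log2 fold changes and adjusted p-values, and list only subsystems with an adjusted p under 0.01.

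Groups are strain and sex from the labels, with replicate numbers in accession order. The 10 members and all lists were chosen with earlier results of these data known. Every member is named; other subsystems are named from the 5 wall-related lists where called, or as background examples of a list, or as the 3 most alike, and genera as the 3 most alike. Values were tested as log2(value + 1) with limma 3.58.1 (trend, robust; R 4.3.3), 4 group means in 1 fit over all 1057 subsystems, of which 1024 have a read, Benjamini-Hochberg over all, call at 0.05. A fold change on this scale understates that of rare subsystems. Alternatives were edgeR 4.0.16 and DESeq2 1.42.0 on recovered reads, equal totals, pseudocounts of 0.5 and 5, a filter (10 normalized reads in at least 7 rats), eBayes without trend, only the groups compared, without the 3 shallowest libraries, and each rat left out. Thinning to the shallowest library was chosen after seeing the data. Exact permutation tests and correlations used Python 3.11.15 with numpy 2.4.6. The scripts were tested on simulated data. P-values measure the spread between rats. The rarest subsystem is limited by depth, 95952 to 489862 subsystem reads per library. Species tables were not used here.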

Additional observations from a re-analysis of the deposited data

Results flagged for a closer look

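In 40 sets of values (10 members in 4 groups), 3 rats lay far from the rest of their group by the gap to the nearest other rat relative to the group's range (Dixon's 95% critical value). Chance gives about 1 such rat in 20 sets. D-Alanyl Lipoteichoic Acid Biosynthesis stood at 95.1 normalized reads in SHR female 9, against 56.2 in the next SHR female, and this library was the shallowest of all. The same subsystem stood at 118.3 in SHR male 6, against 63.9 in the next SHR male. Murein Hydrolases stood at 580.2 in SHR female 1, against 498.9 in the next SHR female. The strain difference without SHR female 9 and without SHR female 1 is given with each subsystem above, and no cause was tested.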

How the results depend on the processing

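Each number of members called is followed in brackets by the number called over all subsystems in the same run. The filter on low values left 650 subsystems. In females the members called were 2 (89). They became 1 with edgeR (101), a pseudocount of 5 (86), the filter on low values (72) or the females alone (81). They were 4 without the 3 shallowest libraries (150) and 0 after thinning (31). Leaving out 1 rat gave 0 to 5 (61 to 129), with 5 called without SHR female 9 (129). In males the count was 0 (26), became 2 with DESeq2 (77) and 1 with the filter on low values (50). On leaving out 1 rat it ran from 0 to 2 (10 to 81). Between the sexes in WKY it was 0 (7), became 1 with DESeq2 (68) and ran from 0 to 1 (2 to 74) on leaving out 1 rat. Between the sexes in SHR and for the interaction it was 0 under every alternative run.

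Over all subsystems the calls in females ranged from 31 after thinning to 150 without the 3 shallowest libraries (main 89). In males they ranged from 2 on the males alone to 81 without WKY male 7 (main 26; 77 with DESeq2), and between the sexes in WKY from 1 on WKY alone to 74 without WKY male 7 (main 7; 68 with DESeq2).

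Members whose strain difference within a sex turned its sign had log2 fold changes of -0.07 to -0.02 in the main fit. Murein hydrolase regulation and cell death in females came to 0.0181 without the 3 shallowest libraries, and Recycling of Peptidoglycan Amino Acids in males to 0.00295. After thinning, Teichoic and lipoteichoic acids biosynthesis in females came to 0.0203, and in males Peptidoglycan Biosynthesis to 0.0026 and Recycling of Peptidoglycan Amino Sugars to 0.0376. Leaving out 1 rat also turned the sign of Teichoic and lipoteichoic acids biosynthesis in females (4 of 19 fits, up to 0.04). In males it turned that of Recycling of Peptidoglycan Amino Sugars (4 of 14 fits, up to 0.16), Peptidoglycan Biosynthesis (2 fits), Peptidoglycan biosynthesis--gjo (1 fit) and Recycling of Peptidoglycan Amino Acids (1 fit). For the interaction it turned that of Polyglycerolphosphate lipoteichoic acid biosynthesis (7 of 33 fits). Between the sexes in WKY it turned that of Recycling of Peptidoglycan Amino Acids (3 of 16 fits). The ratio of Teichoic and lipoteichoic acids biosynthesis in females was -0.0136 with total subsystem reads as the denominator. The ratios of the lipoteichoic acid subsystems in females passed at -1.23 (D-Alanyl) and -1.19 (Polyglycerolphosphate) without the 3 shallowest libraries.

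Against the Firmicutes share, Murein Hydrolases passed on percent of subsystem reads (r = 0.51, adjusted permutation p = 0.00935). Recycling of Peptidoglycan Amino Sugars did not by Pearson's r (-0.37, adjusted permutation p = 0.0595), but did by Spearman's rho (-0.41, adjusted permutation p = 0.0377). Without the 3 shallowest libraries r turned to 0.0234 for Murein hydrolase regulation and cell death and to -0.21 for Peptidoglycan Biosynthesis. The cause of these changes was not tested. Median depth was lower in SHR than in WKY in both sexes, and the shallowest libraries were SHR. Some SHR libraries were deeper than some WKY ones, such as SHR female 4 (395417 reads) against WKY female 1 (251346). Depth thus limits the rare subsystems most in the shallow SHR libraries.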
